A study of Bos taurus with 36 samples.

Results

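The gonads of male bovine fetuses from 2 kinds of embryo transfer, ET_D9 and ET_D7, were compared. In both, the embryo was 7 days old, and the recipient was on Day 9 of the oestrous cycle in ET_D9 and on Day 7 in ET_D7. The comparison used every gonad library of the series, 5 of ET_D9 and 4 of ET_D7, which are 9 of its 36 samples. It covered every gene with at least 10 counts in at least 4 of these libraries, 17809 of the 35092 genes in the count table. The transfers put an embryo into a uterus of its own age (ET_D7) or into one whose cycle was ahead of it (ET_D9), and the synchronization was timed so that both were done on the same calendar day. The recipients were heifers assigned to the groups at random, and each fetus came from a different recipient. All fetuses were recovered at slaughter at a gestational age of 42 days, and their organs were dissected and snap-frozen. They were male fetuses picked for divergent weight from the pregnancies of a larger trial, so they are not a random sample of each group. The numbers of the fetuses follow their weight, fetus 1 being the lightest and fetus 10 the heaviest. The ET_D7 gonads came from fetuses 1, 3, 4 and 5, of 1.253 to 1.37 g, and the ET_D9 gonads from fetuses 6 to 10, of 1.396 to 1.69 g. Every ET_D9 fetus was heavier than every ET_D7 fetus, so transfer group and fetal weight cannot be told apart in a difference between the groups. The study left out 1 gonad sample after RNA quality control, and there is no gonad library of fetus 2.

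In the bovine fetus at this age the testis has only recently formed. Sertoli cells gather the germ cells into cords and secrete anti-Müllerian hormone, and fetal Leydig cells between the cords begin to make androgens. The gonad lies against the mesonephros, the embryonic kidney, with the metanephros, the later kidney, close by, and both are built from a duct, a progenitor mesenchyme, podocytes that filter blood in the glomerulus, and tubules that take solutes back. A tissue piece dissected from this region can hold any of these cells, and in bulk RNA fewer cells of a type and less RNA per cell cannot be told apart.

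The gonad libraries held 22762065 to 39649051 counts, 22762065 of them in the library of fetus 1, the lowest. Genes encoded by mitochondrial DNA took 3.31% to 4.55% of the counts in ET_D7 and 3.22% to 7.06% in ET_D9, the highest in fetus 7. Levels are given as CPM, the counts of a gene over the total of its library after adjustment by edgeR's TMM factor, scaled to a total of 1000000. The factors were 0.945 to 1.06 in the gonad libraries. The library of fetus 1 stood apart, with 651 genes more than 4-fold below their level in every other gonad library and a median correlation of 0.944 with the other libraries across genes. The library of fetus 8 had 796 such genes and a median correlation of 0.984, and it held 950 genes at 0 that had counts in all the others.

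The ET_D9 libraries of fetuses 6 and 8 were alike beyond what counting allows. Over 15950 genes with enough counts, their scaled counts differed by a median of 0.0200 counting errors, the error that random sampling of reads gives, whereas the other pairs of gonad libraries differed by medians of 1.18 to 6.62. In 91.9% of these genes the 2 libraries lay within 0.2 counting errors of each other, against at most 9.30% in any other pair. The counts of fetus 6 were 0.785 times those of fetus 8 in abundant genes. A smaller set of 1099 genes was more than 2 counting errors apart, 899 of them lower in fetus 6, and 855 tested genes were at 0 in fetus 8 with at least 10 counts in fetus 6. In these 1099 genes the library of fetus 1 was also low, at a median of 0.146 times the median of fetuses 3, 4, 5, 7, 9 and 10. In the rest of the 15950 genes it was at 1.06 times that median.

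Both libraries could also be written as a sum of the other ET_D9 libraries. Over 9280 genes with at least 300 counts in every gonad library, fetus 6 was 0.256 times fetus 7 plus 0.298 times fetus 9 plus 0.275 times fetus 10, with a median residual of 0.266 counting errors, and fetus 8 was such a sum with a median residual of 0.330. Counting noise alone gives a median of 0.674. With fetuses 6 and 8 kept out of the sums, no other gonad library came close to a sum of others in its group. The median residuals were 2.67 to 7.15. Fetuses 7, 9 and 10 were each fitted from the others of these alone. Sums holding fetus 6 or 8 were not fitted for them, so this contrast depends on which libraries were allowed in the sums. The level of fetus 6 lay between the lowest and the highest of fetuses 7, 9 and 10 in 98.0% of genes. How these 2 libraries came to be so alike was not tested. They differed from each other by less than the sampling noise in most genes and were counted as 1 sample, the mean of their counts, so that the comparison has 4 libraries in each group. Because this library also lies inside the range of the other 3, it adds little spread of its own to ET_D9 and the p-values given with it are too small. A separation of all ET_D9 from all ET_D7 levels likewise rests largely on fetuses 7, 9 and 10. In the 855 tested genes at 0 in fetus 8 with at least 10 counts in fetus 6, the mean takes in that 0. The joint level there lies below that of fetus 6, which also enters the fold changes and the separations. Values without both libraries (4 ET_D7 against 3 ET_D9) are given for most of the named genes and lists whose call or count they change.

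**Figure D1:**
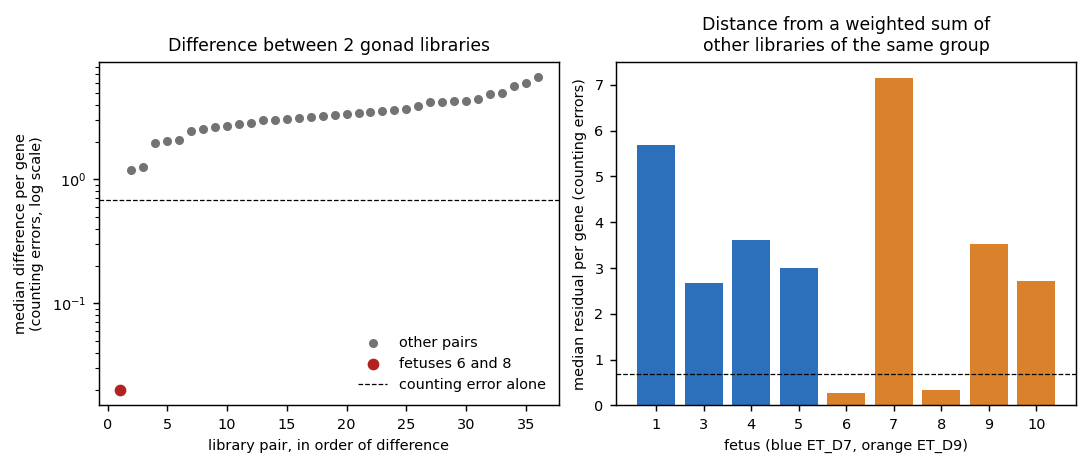
Left, each point is 1 of the 36 pairs of gonad libraries, with the median per-gene difference of the pair in counting errors on a log axis, and the pair of fetuses 6 and 8 in red at 0.0200, below all other pairs (1.18 to 6.62). Right, bars give the median residual of each library from a weighted sum of other libraries of its group, in counting errors, with fetuses 6 and 8 kept out of every sum. Fetuses 6 and 8 sit at 0.266 and 0.330, under the 0.674 of counting noise (dashed), and the other libraries at 2.67 to 7.15.

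The tissue of these libraries is labelled fetal testicle, and its markers were checked. Kidney-forming genes were high in all of them. PAX2, a transcription factor of the nephric duct and its derivatives, had 166 to 220 CPM, PAX8, its close relative, 104 to 158 CPM, and SIX2, which maintains nephron progenitors, 45.1 to 96.6 CPM. Several defining testis genes were near 0. GATA4, a transcription factor of gonadal somatic cells, had at most 0.199 CPM and DMRT1, a Sertoli cell transcription factor, at most 0.445 CPM. The germ cell genes DAZL and DDX4 had at most 0.112 and 0.419 CPM, and NANOG was at 0 counts in every library. INSL3 and CYP17A1, a hormone and an androgen-making enzyme of Leydig cells, had at most 0.265 and 0.541 CPM. AMH, the anti-Müllerian hormone itself, was counted in every library at 1.54 to 3.71 CPM. Other members of the testis lists were higher. Among them, NR5A1 of the Sertoli cell list and CYP11A1 and LHCGR of the fetal Leydig cell list reached 1 CPM in at least 1 library. The Sertoli cell list, with 2 of 11 members under 1 CPM in every library, summed to 61.8 to 113 CPM, the fetal Leydig cell list, with 2 of 7, to 12.6 to 24.4 CPM, the germ cell list, with 5 of 9, to 39.3 to 58.1 CPM, and that of gonadal mesenchyme and surface epithelium, with 2 of 8, to 779 to 1265 CPM. By several defining markers the data thus go against the label in both groups alike, while AMH, NR5A1 and other members of the testis lists were counted. The libraries are called gonad libraries here as their names have it.

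**Figure D2:**
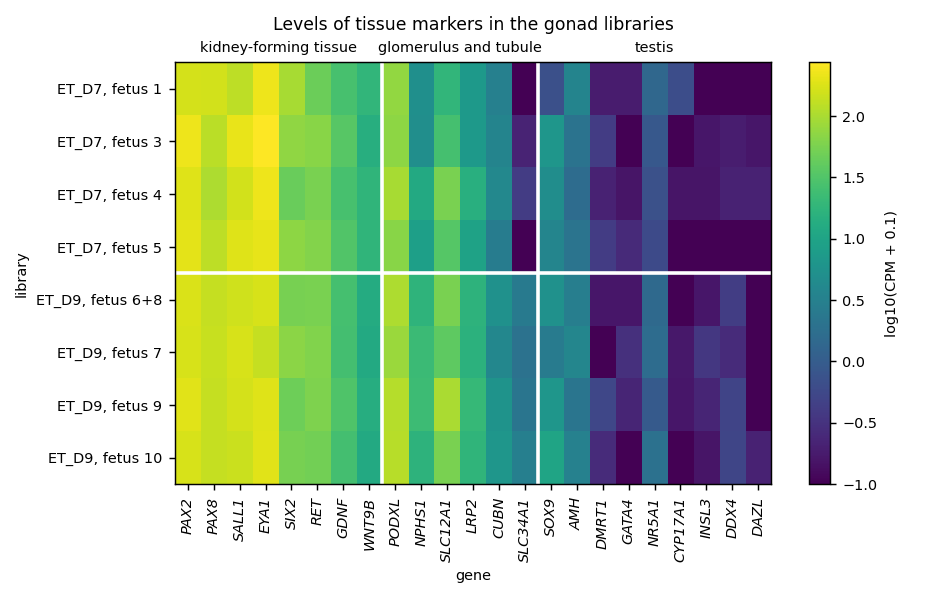
Levels of marker genes (columns) in the 8 libraries (rows, fetuses 6 and 8 as 1), coloured by log10 of CPM plus 0.1. The kidney-forming genes such as PAX2 (166 to 220 CPM) are high in all libraries, and the testis genes GATA4, DMRT1 and DAZL stay under 0.5 CPM in all of them.

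Each gene was tested with edgeR's quasi-likelihood test, with p-values adjusted over all 17809 genes by the Benjamini-Hochberg method and a threshold of 0.05. OR10AL42 rose in ET_D9 (1 gene, 0.00562% of the genes tested) and LOC101904633 fell (1 gene, 0.00562%). At an unadjusted p under 0.05 there were 1390 higher genes (7.81%) and 936 lower genes (5.26%). The levels of all 4 ET_D9 libraries lay above all 4 ET_D7 libraries in 775 of the genes (4.35%), and below them in 702 (3.94%). As the joint library of fetuses 6 and 8 is close to a sum of fetuses 7, 9 and 10, these counts rest largely on those libraries. Over all genes the median log2 fold change was 0.04, and 54.9% were above 0. Without fetuses 6 and 8 no gene passed the adjusted test, the smallest adjusted p being 0.341, and 930 higher (5.22%) and 455 lower genes (2.55%) had an unadjusted p under 0.05. The fit first planned took all 9 libraries as deposited, with fetuses 6 and 8 as separate samples. It gave 24 higher and 39 lower genes at an adjusted p under 0.05, or 63 in place of 2. Genes below are therefore described by their levels, and "higher" or "lower" is used for those with a p under 0.05 before adjustment. Levels are listed in the order of fetuses 1, 3, 4 and 5 for ET_D7, and for ET_D9 in the order of the joint library of fetuses 6 and 8 and then fetuses 7, 9 and 10.

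OR10AL42 belongs to the olfactory receptors, a large family of odour-sensing receptors whose genes can share reads, and the counting options for such reads are not given in the sources used here. It had 0.458, 0.272, 0.421 and 0.464 CPM in ET_D7 and 2.42, 2.22, 3.02 and 2.18 CPM in ET_D9. These levels rest on 9 to 18 counts per ET_D7 library and 67 to 95 per ET_D9 library. All ET_D9 libraries lay far above all ET_D7 libraries. Its log2 fold change was 2.60 (standard error 0.265, adjusted p = 0.0427, edgeR). Without fetuses 6 and 8 the log2 fold change was 2.61, with an adjusted p of 0.341 in edgeR. LOC101904633, a gene without a name beyond its identifier, had 3.08, 3.87, 4.51 and 3.79 CPM in ET_D7 and 1.18, 1.32, 1.11 and 1.23 CPM in ET_D9. Its groups do not overlap either. The log2 fold change was −1.65 (standard error 0.185, adjusted p = 0.0469, edgeR), and −1.64 without fetuses 6 and 8 (adjusted p = 0.449, edgeR). Both genes also lost the adjusted call when any 1 of fetuses 3, 4, 5, 6, 7, 9 or 10 was left out, and kept it without fetus 1 or without fetus 8. With fetal weight in the model as a covariate, their log2 fold changes for the group were 2.52 and −1.78, with an adjusted p of 0.350 for both in edgeR.

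The other genes with the smallest p among those higher in ET_D9 come next. OSR2, a transcription factor of the odd-skipped family found in kidney mesenchyme, had 6.99, 6.87, 9.48 and 8.64 CPM in ET_D7 and 16.2, 17.9, 16.1 and 15 CPM in ET_D9. The lowest ET_D9 library was well above the highest ET_D7 library, and the log2 fold change was 1.03 (standard error 0.149, adjusted p = 0.141, edgeR). SLC34A1, the sodium-phosphate cotransporter of the proximal tubule, had 0, 0.121, 0.308 and 0 CPM in ET_D7 and 2.39, 1.86, 2.1 and 2.99 CPM in ET_D9. It was at 0 or nearly so in all ET_D7 libraries and counted in every ET_D9 library, and its log2 fold change was 4.33 (standard error 0.735, with an adjusted p of 0.153 in edgeR). GC, the vitamin D binding protein that tubule cells take up and the liver secretes, had 0, 0.091, 0.28 and 0 CPM in ET_D7 and 2.36, 1.26, 1.97 and 3.04 CPM in ET_D9, the same division of the libraries. Its log2 fold change was 4.42 (standard error 0.770). SLC34A1 had 0 to 11 counts per ET_D7 library and GC 0 to 10, so both met the count filter only through their ET_D9 counts. With 5 ET_D9 and 4 ET_D7 libraries counted, that filter was easier to meet through ET_D9.

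Another 3 genes were low in ET_D7. SIM2, a basic helix-loop-helix transcription factor, had 0.083, 0.181, 0.421 and 0.026 CPM in ET_D7 and 2.3, 1.29, 1.68 and 2.99 CPM in ET_D9, and LRRC38, an auxiliary subunit of calcium-activated potassium channels, had 0.25, 0.242, 0.673 and 0 CPM in ET_D7 and 4.08, 2.82, 2.61 and 5.56 CPM in ET_D9. AFP, alpha-fetoprotein, a serum protein of the fetal liver and yolk sac, had 0.583, 0.393, 1.6 and 0.413 CPM in ET_D7 and 4.98, 2.45, 3.18 and 6.59 CPM in ET_D9. In GC, SIM2, LRRC38 and AFP fetus 10 had the highest level of all libraries, and the joint library of fetuses 6 and 8 the next. The log2 fold changes were 3.49 for SIM2, 3.68 for LRRC38 and 2.51 for AFP. SIM2 and LRRC38, with 1 to 15 and 0 to 24 counts per ET_D7 library, also met the count filter only through ET_D9.

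Other genes were expressed in both groups. PGM5, a phosphoglucomutase relative found at cell adhesions, had 6.16, 6.83, 9.59 and 6.26 CPM in ET_D7 and 14.8, 14.4, 14.2 and 16.9 CPM in ET_D9. KCNE5, a regulatory subunit of potassium channels, had 3.87, 5.23, 6.9 and 5.47 CPM in ET_D7 and 12.5, 16.8, 10.5 and 12.6 CPM in ET_D9. SLC35C1, which carries GDP-fucose into the Golgi, had 2.21, 1.78, 1.96 and 1.01 CPM in ET_D7 and 6.54, 7.39, 3.24 and 8.55 CPM in ET_D9. None of these 3 overlapped between the groups, and their log2 fold changes were 1.06, 1.28 and 1.89. ERICH2 and LRRC71, whose products are less studied, ran from 2.66 to 3.98 CPM and from 3.51 to 5.08 CPM in ET_D7, and from 5.78 to 6.33 CPM and from 7.12 to 8.75 CPM in ET_D9.

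On the lower side, ZNF599, a zinc finger protein, had 16.8, 18, 17.8 and 18.2 CPM in ET_D7 and 8.2, 6.93, 9.95 and 8.02 CPM in ET_D9. The ET_D7 libraries were tightly grouped and all ET_D9 libraries were lower, and the log2 fold change was −1.10 (standard error 0.141, with an adjusted p of 0.107 in edgeR). SLC6A12, a transporter of betaine and GABA, had 20.1, 7.29, 13.5 and 53 CPM in ET_D7 and 0.51, 0.464, 1.49 and 0 CPM in ET_D9. Its ET_D7 libraries differed widely among themselves and still lay above every ET_D9 library, and fetus 10 had no count. The log2 fold change was −5.26 (standard error 0.912). SEC23B, a coat protein of vesicles that leave the endoplasmic reticulum, had 127, 234, 121 and 181 CPM in ET_D7 and 71.3, 79.4, 85 and 67.5 CPM in ET_D9. Its groups did not overlap (log2 fold change −1.13, standard error 0.218).

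Another 2 lower genes are known from neurons. ELAVL3, a neuronal RNA-binding protein, had 5.04, 2.96, 6.9 and 3.76 CPM in ET_D7 and 1.53, 1.56, 1.18 and 1.81 CPM in ET_D9, and CHAT, which makes acetylcholine, had 4.54, 3.21, 4.29 and 4.33 CPM in ET_D7 and 1.79, 1.56, 2.26 and 1.7 CPM in ET_D9. Every ET_D9 level of both genes lay under every ET_D7 level, and the log2 fold changes were −1.61 and −1.16. Also lower were FSIP2, a protein of the sperm fibrous sheath, at 1.42 to 1.96 CPM in ET_D7 and 0.497 to 0.587 CPM in ET_D9, and CFAP299, a cilia-associated protein, at 7.82 to 10.9 CPM and 4.67 to 6.10 CPM. FGF20, a growth factor that keeps nephron progenitors, had 3.75, 4.75, 3.11 and 3.35 CPM in ET_D7 and 1.85, 1.96, 1.65 and 2.12 CPM in ET_D9, with a log2 fold change of −0.98. Other lower genes of this set were N6AMT1, a methyltransferase, GPA33, a cell surface antigen, ZSCAN23, a zinc finger protein, and KCNT2, a sodium-activated potassium channel. Their log2 fold changes were −0.79, −1.25, −0.91 and −0.66, and in none of the 4 did the groups overlap. Among all 24 genes chosen by the smallest p, 12 in each direction, the edgeR adjusted p was at least 0.107 except for OR10AL42. All 24 stayed under an unadjusted p of 0.05 without fetus 1 and also without fetuses 6 and 8. As these genes were chosen for the smallest p in largely the same libraries, this was close to given. The lack of overlap between the groups likewise follows largely from that choice.

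**Figure D3:**
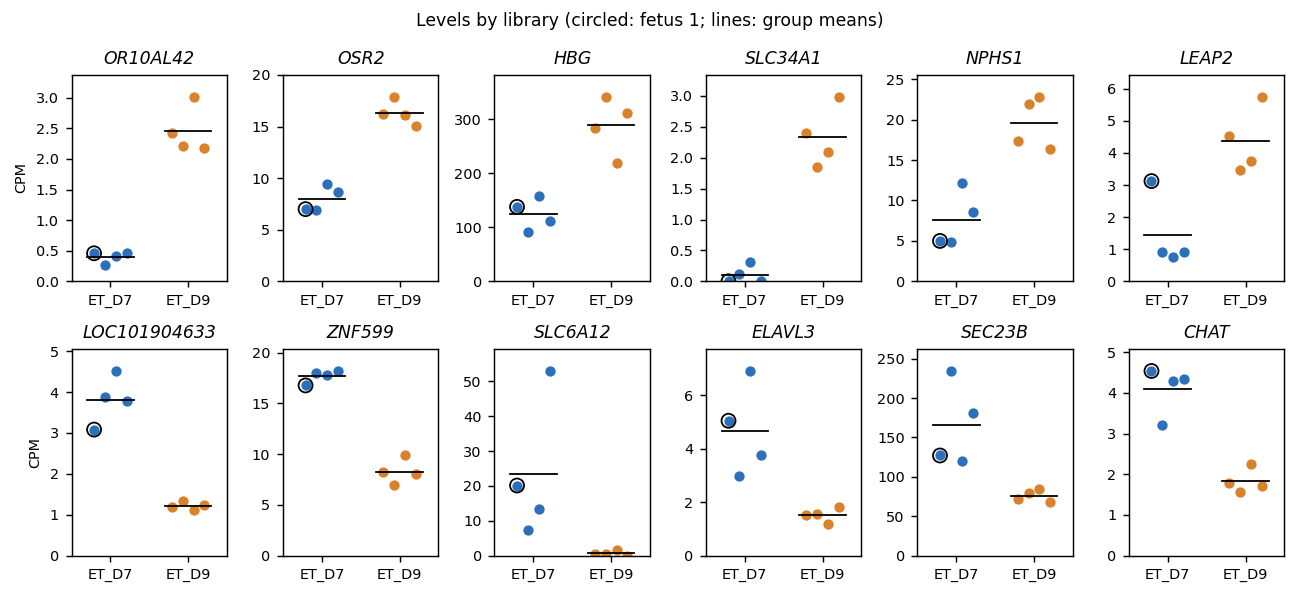
CPM of 12 genes in each library, with ET_D7 at left and ET_D9 at right in each panel, horizontal lines at the group means and the lightest fetus circled. OSR2 lies at 6.87 to 9.48 CPM in ET_D7 and 15.0 to 17.9 CPM in ET_D9, ZNF599 at 16.8 to 18.2 CPM and 6.93 to 9.95 CPM, and in LEAP2 the circled ET_D7 library, at 3.12 CPM, is close to ET_D9.

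The comparison was then made without fetus 1, the lightest, whose library stands apart. At an adjusted p under 0.05, 2 genes rose (0.0112%) and 1 fell (0.00562%), and at an unadjusted p 1801 genes were higher (10.1%) and 1237 lower (6.95%). Of the 1390 higher genes of the full comparison 1160 were also higher without it (83.5%), and of the 936 lower genes 768 (82.1%). All of them had the same sign. OR10AL42 and LOC101904633 held, with log2 fold changes of 2.65 and −1.74 (adjusted p = 0.0445 and 0.0404, edgeR). LEAP2, a peptide of liver and gut that blocks the ghrelin receptor, was the gene gained. It had 3.12, 0.907, 0.757 and 0.928 CPM in ET_D7 and 4.53, 3.48, 3.75 and 5.75 CPM in ET_D9, so the lightest fetus alone of ET_D7 lay near ET_D9. Its log2 fold change was 1.65 with fetus 1 (adjusted p = 0.198, edgeR) and 2.34 without it (adjusted p = 0.0404, edgeR). Without fetuses 6 and 8 as well, no gene passed the adjusted test, the smallest adjusted p, that of LEAP2 among others, being 0.148 in edgeR.

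The other genes with the smallest p without fetus 1, which were chosen on that comparison, followed the same division. Among those higher in ET_D9, fetus 1 had the highest ET_D7 level of SLC2A11, a sugar transporter (2.71, 1.45, 1.6 and 1.6 CPM in ET_D7 and 3.96, 4.14, 3.65 and 4.44 CPM in ET_D9), of MZB1, a chaperone of antibody-secreting cells (2.0, 0.998, 0.785 and 0.825 CPM in ET_D7 and 3.7, 4.34, 2.07 and 4.52 CPM in ET_D9), and of FOXS1, a forkhead factor of pericytes and sensory neurons (1.58, 0.726, 0.701 and 0.619 CPM in ET_D7 and 2.81, 3.41, 1.65 and 3.44 CPM in ET_D9). MRGPRF, an orphan receptor, was also highest in fetus 1 within ET_D7, at 2.12 CPM. Among those lower in ET_D9, fetus 1 had the lowest ET_D7 level. SALL4, a stem cell transcription factor, had 3.12, 5.35, 5.8 and 5.78 CPM in ET_D7 and 2.55, 2.68, 3.4 and 2.29 CPM in ET_D9. DYNLT5, a dynein light chain, had 1.67, 2.84, 3.87 and 5.47 CPM in ET_D7 and 0.702, 0.928, 1.37 and 0.475 CPM in ET_D9, and RADX, a protein that binds single-stranded DNA at replication forks, 13.9, 25.5, 39.3 and 44.9 CPM in ET_D7 and 9.0, 13.7, 14.4 and 6.98 CPM in ET_D9. FAM111A, a protease of replication forks, CAPS2, a calcium-binding protein, and LIMD1, an adaptor of the Hippo pathway, were also lowest in fetus 1 within ET_D7, at 2.46, 0.958 and 3.96 CPM. The difference between the groups was larger without the lightest fetus in each of them. For RADX the log2 fold change went from −1.49 to −1.73. LIMD1 lost its call without fetuses 6 and 8, at −0.60.

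Few abundant genes depended on fetus 1 for their size. Over the 11580 genes of at least 5 CPM, leaving it out moved the log2 fold change by a median of 0.0877, and 1 gene moved by more than 0.5. The 8 genes that moved most had log2 fold changes of 0.01 to 0.57 with fetus 1 and −0.29 to 0.58 without it, and none had a p under 0.05 with it. FYTTD1, an mRNA export adaptor, had 2.12, 31.9, 29.2 and 57.1 CPM in ET_D7 and 79.6, 9.01, 37.4 and 53.3 CPM in ET_D9, and CASP2, a caspase, 0.708, 17.4, 16.2 and 17.7 CPM in ET_D7 and 18.7, 16.9, 17.4 and 11.2 CPM in ET_D9. Fetus 1 was far below the others in both, and in FYTTD1 fetus 7 was low as well. TRMT13, a tRNA methyltransferase, and FZD6, a WNT receptor, had the same pattern, at 1.62 and 0.208 CPM in fetus 1 and 5.10 and 1.62 CPM in fetus 7. Opposite to these, TBC1D20, a regulator of RAB1, had 159, 31.2, 29.9 and 107 CPM in ET_D7 and 66.6, 96.1, 103 and 62.4 CPM in ET_D9, and CNOT11, a subunit of the deadenylase complex, 47.1, 15.6, 15.2 and 26.1 CPM in ET_D7 and 23.6, 32.8, 25.9 and 24.1 CPM in ET_D9. The mitochondrial ribosomal RNA genes KEH36_r01 and KEH36_r02 were also highest in fetus 1, at 1381 and 587 CPM.

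**Figure D4:**
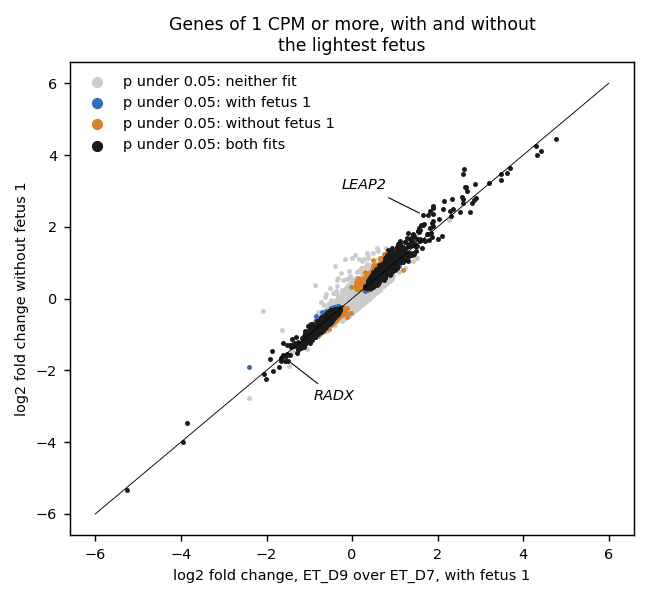
Log2 fold change of each gene of at least 1 CPM in the comparison of all libraries (horizontal) and without the lightest fetus (vertical), coloured by which of the 2 had an unadjusted p under 0.05. Points lie along the diagonal, LEAP2 lies above it at 1.65 and 2.34, and RADX below it at −1.49 and −1.73.

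Gene lists for the cell types and processes of this tissue are described by how many of their tested members had an unadjusted p under 0.05, to be read against 7.81% higher and 5.26% lower genes over all genes, and by their median log2 fold change, to be read against 0.04. No member of any list passed the adjusted test. Genes of podocytes were higher, 4 of 6 with none lower and a median of 0.62. NPHS1 (nephrin), the adhesion protein of the slit between podocytes, had 5.0, 4.87, 12.1 and 8.61 CPM in ET_D7 and 17.3, 22, 22.9 and 16.4 CPM in ET_D9. The log2 fold change was 1.36 (standard error 0.294, adjusted p = 0.158, edgeR). Every ET_D9 level lay above every ET_D7 level. PODXL, a coat protein of podocytes and vessels, ran from 67.9 to 96.1 CPM in ET_D7 and from 82.1 to 116 CPM in ET_D9, and SYNPO and PTPRO had log2 fold changes of 0.41 and 0.24 without a p under 0.05. The summed level of the list was 129 to 166 CPM in ET_D7 and 197 to 216 CPM in ET_D9. Without fetus 1, 3 of the 4 higher members were kept and SYNPO came in (log2 fold change 0.59), while PODXL was lost, and without fetuses 6 and 8 the same 3 were kept.

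Genes of the renal tubule were higher as well, 4 of 7 tested with none lower and a median of 0.70. Of the 4, SLC34A1 was tested only because of its ET_D9 counts. Besides SLC34A1, these were the endocytic receptors of the proximal tubule, LRP2 (megalin), with 7.08, 7.17, 14.8 and 9.33 CPM in ET_D7 and 16.7, 15.9, 20.1 and 17.4 CPM in ET_D9, and CUBN (cubilin), with 3.04, 3.48, 3.98 and 2.66 CPM in ET_D7 and 5.42, 3.84, 5.82 and 6.34 CPM in ET_D9. The fourth was SLC12A1, the sodium-potassium-chloride cotransporter of the loop of Henle, with 18.2, 26.5, 55.3 and 34 CPM in ET_D7 and 55.8, 38.5, 102 and 55.9 CPM in ET_D9, in which the groups overlapped. With fetal weight as a covariate the direction of SLC12A1 turned, to −0.27. SLC5A2, a glucose transporter, and SLC3A1, an amino acid transporter subunit, had log2 fold changes of 0.01 and −0.21. The tubule genes UMOD and SLC22A6 were too low to be tested. Without fetus 1, 3 of the 4 were kept and SLC12A1 was lost, and without fetuses 6 and 8 all 4 were kept.

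The genes of the progenitors and of the duct gave another picture. Of 10 nephron progenitor genes 0 were higher and 2 were lower, with a median of −0.18. EYA1, a transcriptional coactivator that acts with SIX2, had 227, 274, 224 and 205 CPM in ET_D7 and 172, 138, 188 and 192 CPM in ET_D9, with no overlap of the groups. SIX2, with 45.1 to 96.6 CPM in ET_D7 and 48.0 to 68.5 CPM in ET_D9, overlapped, and so did GDNF, the signal that draws out the ureteric bud, at 27.0 to 34.9 CPM and 25.2 to 30.6 CPM. Of 9 genes of the mesonephric duct and ureteric bud, 2 were higher and 1 was lower. WNT11, a signal of the bud tip, had a log2 fold change of 0.42, and WNT9B, a signal of the duct to the progenitors, −0.41. The duct list had 0 higher and 1 lower member without fetuses 6 and 8. PAX2, PAX8 and RET, the receptor of GDNF, had log2 fold changes of −0.11, 0.10 and −0.03. The summed level of the nephron progenitor list was 607 to 774 CPM in ET_D7 and 563 to 588 CPM in ET_D9, and that of the duct list 485 to 536 CPM and 504 to 563 CPM.

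Testis genes showed few differences. Of 9 tested Sertoli cell genes, 0 were higher or lower, with a median log2 fold change of 0.41, and without fetus 1 there were 3 higher. SOX9, a transcription factor of Sertoli cells and of the ureteric bud tip, ran from 0.583 CPM in fetus 1 to 6.29 CPM in ET_D7 and from 2.55 to 10.2 CPM in ET_D9. AMH was at 1.54 to 3.41 CPM and 2.10 to 3.71 CPM. HSD3B1, an enzyme of steroid synthesis, was the 1 higher gene of 5 tested for fetal Leydig cells, with 1.29, 0.665, 0.757 and 0.67 CPM in ET_D7 and 1.34, 1.49, 1.08 and 1.56 CPM in ET_D9, and fetus 1 in the range of ET_D9. STAR, which carries cholesterol into mitochondria, had a log2 fold change of −0.41 without a p under 0.05. The 4 tested germ cell genes had 0 higher and 0 lower, and the 7 of gonadal mesenchyme and surface epithelium likewise. HSD3B1 was also the 1 higher of 20 genes of steroid and cholesterol synthesis, with 0 lower. It lost its call without fetuses 6 and 8. RSPO1, a WNT agonist, was higher among 3 pre-granulosa genes (log2 fold change 0.51), and lost its call without fetuses 6 and 8. AMHR2, the receptor of anti-Müllerian hormone, was lower, with 8.24, 12.2, 11.9 and 10.4 CPM in ET_D7 and 7.34, 5.63, 9.34 and 7.57 CPM in ET_D9.

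Blood genes stood out among the other cell types. Of 11 tested genes of erythroid cells 7 were higher and 0 lower, with a median of 0.70, and all 11 had a positive log2 fold change. HBG, a gamma-type globin, had 138, 90.7, 158 and 112 CPM in ET_D7 and 283, 342, 219 and 312 CPM in ET_D9, and HBE1, an embryonic epsilon-type globin, 463, 312, 333 and 280 CPM in ET_D7 and 884, 1154, 447 and 1025 CPM in ET_D9. The groups did not overlap in HBG, while in HBE1 fetus 9 lay under fetus 1. HBA1, an alpha-type globin, had 1.37, 0.665, 0.897 and 0.748 CPM in ET_D7 and 3.19, 4.84, 1.56 and 3.66 CPM in ET_D9. The log2 fold changes were 1.21, 1.34 and 1.86. Globin genes are near-identical copies in part, so reads may be split between them. The summed level of the list was 428 to 639 CPM in ET_D7 and 699 to 1579 CPM in ET_D9, lowest within ET_D9 in fetus 9. All 7 were kept without fetus 1, with 8 higher in all, and 6 were kept without fetuses 6 and 8. Whether blood left in the pieces takes part in other differences was not tested.

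The remaining cell type lists had 0 to 2 members with a p under 0.05. C1QA and C1QC, chains of the first complement component made by macrophages, were the 2 lower of 6 tested macrophage genes. C1QA had 1.96, 2.27, 2.8 and 3.09 CPM in ET_D7 and 1.37, 1.26, 2.03 and 1.06 CPM in ET_D9. The log2 fold changes were −0.83 for C1QA and −0.72 for C1QC. Yet 3 of the 6 were above 0, the list median was 0.10, and the list sums overlapped (28.0 to 34.9 CPM in ET_D7, 29.6 to 35.5 CPM in ET_D9). ELAVL4, a neuronal relative of ELAVL3, was the 1 lower of 5 genes of glia and neurons (list median −0.05). It had 6.19 to 8.64 CPM in ET_D7 and 3.21 to 5.59 CPM in ET_D9. In the hepatocyte list AFP was higher and ALB, albumin, was lower, with log2 fold changes of 2.51 and −0.63. TNNT2, cardiac troponin T, was the 1 higher of 4 tested cardiomyocyte genes, of which 2 had a positive log2 fold change. It had 2.87 to 3.41 CPM in ET_D9 against 0.847 to 2.62 CPM in ET_D7. None of 6 endothelial, 5 skeletal muscle or 1 tested adrenal cortex genes had a p under 0.05.

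The largest list to lean one way was that of the cytosolic ribosomal proteins, the protein part of the ribosome, with 54 of 83 higher, 0 lower and a median of 0.47. RPLP2, a stalk protein of the large subunit, had 785, 783, 827 and 707 CPM in ET_D7 and 1396, 1856, 936 and 1522 CPM in ET_D9, and RPL27A 728, 770, 899 and 805 CPM in ET_D7 and 1306, 1695, 1033 and 1312 CPM in ET_D9. The groups did not overlap in either, and fetus 9 was the lowest of ET_D9 in both. Their log2 fold changes were 0.88 and 0.74 (standard errors 0.193 and 0.162, both adjusted p = 0.158, edgeR). The whole list summed to 75427 to 84026 CPM in ET_D7, and in ET_D9 to 102785 CPM in the joint library, 121274 CPM in fetus 7, 86335 CPM in fetus 9 and 111381 CPM in fetus 10. Without fetus 1 there were 57 higher members, 48 of them among the 54, and without fetuses 6 and 8 there were 43, all among the 54. Ribosomal protein genes have many processed copies in the genome, and reads could be shared with them.

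Of 82 nuclear genes of the respiratory chain, 20 were higher and 2 lower, with a median of 0.24. There were 14 higher and 1 lower without fetuses 6 and 8. There were 12 higher without fetus 3 or fetus 5, 13 without fetus 7, and 19 without fetus 1, 15 of them among the 20. ATP5ME, a subunit of ATP synthase, had 52.1, 44.3, 45.6 and 43.3 CPM in ET_D7 and 86.1, 117, 58.1 and 91.9 CPM in ET_D9, and NDUFB9, a subunit of complex I, 68.4, 70, 88.4 and 75.4 CPM in ET_D7 and 118, 153, 92.9 and 119 CPM in ET_D9. Neither overlapped between the groups, and fetus 7 was the highest library in both. The 13 protein-coding genes of the mitochondrial DNA summed to 32166 to 46497 CPM in ET_D7 and 31499 to 74685 CPM in ET_D9, with fetus 7 at the top, and 1 of them, ND5 of complex I, was higher (log2 fold change 0.63), though not without fetus 1. Of 33 tested histone genes of the kind made during DNA replication, 5 were higher and 0 lower, 10 without fetus 1. H4C4, one of these, had 7.95, 4.36, 5.02 and 3.94 CPM in ET_D7 and 10.5, 11.8, 6.58 and 12.9 CPM in ET_D9. These histone messages lack a poly(A) tail for the most part, and the libraries were made from poly(A) RNA. Of 39 cell cycle genes 0 were higher and 2 were lower, KIF20A and KIF23, kinesins of cell division, with log2 fold changes of −0.43 and −0.30. Both lost their call without fetus 1, at −0.25 and −0.30, and without fetuses 6 and 8, at −0.43 and −0.29. Of 30 genes of chromatin modifiers and RNA processing factors with long transcripts 0 were higher and 3 lower. Among these were ARID2, a subunit of a chromatin remodelling complex, with 91.2, 105, 124 and 108 CPM in ET_D7 and 74.1, 66.2, 86 and 74.3 CPM in ET_D9, and CHD7, another remodeller, with 146, 167, 132 and 150 CPM in ET_D7 and 109, 100, 122 and 109 CPM in ET_D9. The third was KMT2A, a histone methyltransferase. Without fetus 1 there were 6 lower members and without fetuses 6 and 8 there were 2.

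**Figure D5:**
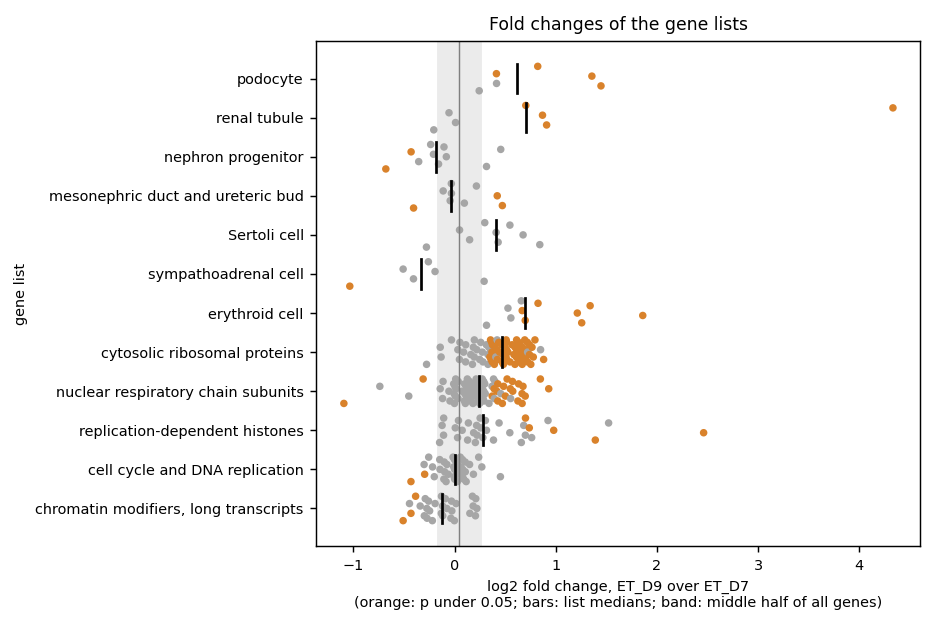
Log2 fold change of the tested members of 12 gene lists, 1 point per gene, orange where the unadjusted p is under 0.05, with bars at list medians, a line at the median of all genes (0.04) and a band from the lower to the upper quartile of all genes (−0.16 to 0.26). The podocyte, tubule, erythroid and ribosomal lists have medians of 0.62, 0.70, 0.70 and 0.47, and the nephron progenitor list −0.18.

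Few members of the signalling lists had a p under 0.05. In the IGF system 2 of 17 were higher and 0 lower, IGFBP6, a binding protein that prefers IGF2, with 49.5, 39.4, 42.7 and 50.9 CPM in ET_D7 and 71.1, 105, 54.5 and 63.5 CPM in ET_D9, and IGF1, a growth factor, with 6.54, 4.51, 8.05 and 4.8 CPM in ET_D7 and 8.74, 6.83, 8.68 and 10.4 CPM in ET_D9. IGF2, the main fetal ligand, overlapped between the groups, with a log2 fold change of −0.31. IGF1 lost its call without fetuses 6 and 8. For TGFB, BMP and activin signalling 0 of 33 were higher and 3 were lower, the inhibitory SMAD7 (log2 fold change −0.43), SMAD3, which transmits TGFB signals (−0.49), and AMHR2. Of these SMAD7 alone kept its call without fetuses 6 and 8. For WNT signalling 2 of 34 were higher, RSPO1 and WNT11, and 4 were lower. The lower ones were WNT9B, RSPO2, another WNT agonist (−0.49), DKK2, a secreted modulator (−0.41), and WNT6, a ligand (−0.71). Without fetuses 6 and 8 WNT9B and RSPO2 alone kept their call, and without fetus 1 WNT6 lost it. Of 30 HOX genes, which give cells their position along the body axis, 2 were lower, HOXA6 and HOXC10 (−0.72 and −0.36). Neither kept its call without fetuses 6 and 8, and without fetus 1 HOXC10 lost it (−0.25). Among 18 genes of retinoic acid metabolism 1 was lower, ALDH1A1, which makes retinoic acid, at 15.6 CPM in fetus 1 and 25.5 to 31.4 CPM in the other ET_D7 libraries, against 15.3 to 20.6 CPM in ET_D9. It lost its call without fetuses 6 and 8. NR3C2, the mineralocorticoid receptor, was the 1 lower of 8 steroid hormone receptors, with 15.2, 11.5, 11.7 and 10.2 CPM in ET_D7 and 8.29, 7.26, 8.74 and 9.75 CPM in ET_D9.

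Of 16 tested interferon-stimulated genes 3 were higher and 0 lower. ISG15, a ubiquitin-like protein, had 0.333, 0.272, 0.084 and 0 CPM in ET_D7 and 1.02, 0.895, 0.572 and 1.42 CPM in ET_D9, and USP18, which removes it, 0.375, 0.756, 0.589 and 0.232 CPM in ET_D7 and 1.88, 0.63, 1.37 and 2.54 CPM in ET_D9. IRF7, a transcription factor of the interferon response, had 2.0, 1.06, 1.29 and 1.16 CPM in ET_D7 and 2.74, 3.84, 1.72 and 3.13 CPM in ET_D9. All 3 are at a few CPM or less. ISG15, with 0 to 9 counts per ET_D7 library, met the count filter only through ET_D9. MX1, an antiviral GTPase, was at 3.15 to 6.67 CPM and had a log2 fold change of −0.27 without a p under 0.05. Of 23 genes of hypoxia and glycolysis 3 were higher, among them ADM, the vasodilator adrenomedullin, with 3.62, 1.91, 2.58 and 2.45 CPM in ET_D7 and 4.75, 4.34, 5.18 and 5.08 CPM in ET_D9, and CA9, a carbonic anhydrase, with 7.2, 5.11, 5.61 and 5.57 CPM in ET_D7 and 8.87, 11.9, 6.45 and 9.36 CPM in ET_D9. The list of hypoxia and glycolysis had 2 higher genes without fetus 1, and 2 without fetuses 6 and 8. For the extracellular matrix DCN (decorin), a small proteoglycan, was higher and VCAN (versican), a large one, was lower. VCAN had 1078, 1094, 1150 and 940 CPM in ET_D7 and 708, 521, 803 and 788 CPM in ET_D9, without overlap, and a log2 fold change of −0.60. DCN overlapped between the groups, with fetus 7 at 80.4 CPM in ET_D9, and it lost its call without fetus 1 and without fetuses 6 and 8. Its direction turned with fetal weight as a covariate, to −0.15. PHLDA2, a growth-restraining imprinted gene, was the 1 higher of 15 imprinted genes (log2 fold change 0.64). Of 18 immediate early genes 2 were higher, KLF4 (0.67) and ATF3 (0.45), and 2 lower, with 1 lower when fetuses 6 and 8 were left out. BAG3, a co-chaperone, was the 1 higher of 27 chaperones (0.45).

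The difference between the groups in the gonads was set against that in the heart, the organ with the same number of libraries, 5 of ET_D7 and 4 of ET_D9. Most fetuses gave both organs, so the libraries are not independent, and the interaction of organ and group was tested in edgeR over 15805 genes. Heart levels were adjusted among the heart libraries alone, with TMM factors of 0.647 to 1.36, so levels are not compared between the organs. The heart library of fetus 1 (ET_D7) was also near a weighted sum of other libraries of its group, with a median residual of 0.812 counting errors against 1.77 to 5.28 in the other hearts. Only CNTNAP5, an adhesion protein of neurons, passed the adjusted test (1 gene). In the gonads it had 4.37, 5.59, 6.17 and 4.67 CPM in ET_D7 and 10.5, 6.83, 13.2 and 11.3 CPM in ET_D9, higher in every ET_D9 library. In the heart it had 14.7 ± 1.92 CPM in ET_D7 (SD, n = 5) and 7.3 ± 0.489 CPM in ET_D9 (SD, n = 4), lower in every ET_D9 library. The log2 fold changes were 1.01 in the gonads and −1.01 in the heart, and the gonad difference minus the heart difference, in a fit of both organs, was 1.90 (adjusted p = 0.0134, edgeR). Without the heart library of fetus 1 it was 1.90 (adjusted p = 0.0432, edgeR), and the ET_D7 hearts had 14.5 ± 2.19 CPM (SD, n = 4). With the fetus as a block it was 2.0, with an adjusted p of 0.116 in edgeR. That fit also averaged the heart libraries of fetuses 6 and 8, which differed by a median of 2.46 counting errors. It left out the heart of fetus 2 and the gonad of fetus 7, so it differs from the main fit by more than the pairing. The adjusted call was also lost when both organs of fetus 1, 4, 5, 8 or 10 were left out. At an unadjusted p under 0.05 the gonad difference was above the heart difference in 885 genes (5.6%) and below it in 2023 (12.8%). With other scaling of the libraries (DESeq2's size factors) these were 1241 and 1681, so that the share above the heart went from 30.4% to 42.5%.

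In the next genes by p the gonad difference was below the heart difference. CCNB1, a mitotic cyclin, had 21.1 ± 2.3 CPM in the ET_D7 hearts (SD, n = 5) and 33.0 ± 3.11 CPM in the ET_D9 hearts (SD, n = 4), against 68.2, 79.8, 85.4 and 78.6 CPM in ET_D7 and 64.6, 57.5, 74.3 and 64.8 CPM in ET_D9 in the gonads. LRRC7, a scaffold protein of synapses, had 2.41 ± 0.639 CPM and 7.06 ± 1.52 CPM in the hearts, and STAT4, a transcription factor of cytokine signals, 6.5 ± 0.303 CPM and 12.03 ± 0.212 CPM. In the gonads LRRC7 and STAT4 overlapped between the groups, with log2 fold changes of −0.38 and −0.15. None of these 3 genes passed the adjusted test of the difference between the organs. The genes of this comparison were chosen for their difference between the organs. Several genes named above went the same way in the heart as in the gonads. Among these were ZNF599 (−0.84), LRP2 (0.98), RPLP2 (0.54), NDUFB9 (0.66), ALB (−1.35), ARID2 (−0.43) and RADX (−2.60). SLC2A11 (−0.66) and SMAD7 (0.70) went the opposite way there, as CNTNAP5 did. Each of these genes had an unadjusted p under 0.05 in the heart libraries in edgeR. They are examples, and their numbers are no measure of how often the organs went the same way.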

How the data were processed

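Messenger RNA of 9 fetal gonads was sequenced in stranded, paired-end libraries. Reads were trimmed by the authors (Trimmomatic) and aligned to the bovine assembly ARS-UCD1.3 (STAR 2.7.0b), and they deposited whole-number counts per gene from featureCounts (Subread 2.0.3); versions follow the submitters' processing notes, which also name FastQC 0.11.9. The options for strand, multi-mapping reads and read pairs are not given in the sources used here, so overlapping genes and near-identical copies are uncertain. Counts carry Entrez identifiers, and 16919 of the 17809 tested genes matched a symbol in a RefSeq gene table of another assembly, ARS-UCD2.0, used for names only.

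Genes reaching 10 counts in 4 or more of the 9 gonad libraries were tested with edgeR 4.0.16 (quasi-likelihood test, TMM factors, R 4.3.3) and Benjamini-Hochberg adjustment at 0.05. The comparison had been planned with 9 libraries. After the counts of fetuses 6 and 8 were compared, their mean was used as 1 library. The main comparison was thus chosen after seeing the data, and the planned fit is given as an alternative. CPM values are counts scaled to a TMM-adjusted library total of 1000000, set within each organ, and log2 fold changes are ET_D9 over ET_D7 from the model. The heart comparison is the interaction of organ and group over 15805 genes. The counting error of a difference is the square root of the variance that Poisson sampling gives, and it covers counting error only. The models were tested on simulated data with 200 changed genes. Alternatives were DESeq2 1.42.0, limma 3.58.1 voom with sample weights, other scaling factors, no filter on low counts, fetal weight as a covariate, all organs in 1 fit and each fetus left out.

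Named genes are those with a symbol other than a LOC identifier and a mean of at least 1 CPM that are among the 12 with the smallest p in each direction, the next 6 in each direction without the lightest fetus, the 4 in each direction that moved most without it (mean of at least 5 CPM), up to 2 per gene list at p under 0.05, and the 4 with the smallest p against the heart; other list members were named after their values were seen, and both adjusted genes are named. Some genes that this rule or the lists hold are not reported here, though they count in the totals. The members and the gene lists were chosen with earlier results of these data known.

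Most fetuses gave both organs. Deviations from group means in gonad and heart of the same fetus correlated between −0.151 and 0.397. The pairing comes from the labels, which give both organs the same fetus number, and the fetus was used as a block in an alternative.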

Additional observations from a re-analysis of the deposited data

Results flagged for a closer look

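In 12 of 228 groups of 4 libraries (114 genes in each transfer group) the highest or the lowest library stood far from the others by Dixon's test, and chance flags about 1 in 20 groups. The lightest fetus was that library in 6 of them, all in ET_D7. It was the highest in SLC2A11 (2.71 CPM, others 1.45 to 1.60), FOXS1 (1.58 CPM, others 0.619 to 0.726), LEAP2 (3.12 CPM, others 0.757 to 0.928) and HSD3B1 (1.29 CPM, others 0.665 to 0.757). It was the lowest in SALL4 (3.12 CPM, others 5.35 to 5.80) and CASP2 (0.708 CPM, others 16.2 to 17.7). Several of these genes were named because leaving out this fetus changed them, so their share of such groups is no measure of how often fetus 1 stands apart. In ET_D7, fetus 4 was the highest in AFP (1.60 CPM, others 0.393 to 0.583) and fetus 3 the lowest in WNT9B (14.2 CPM, others 17.6 to 18). In ET_D9, fetus 9 was the highest in CAPS2 (0.731 CPM, others 0.503 to 0.530), in HOXA6 (7.05 CPM, others 4.02 to 4.40) and in SMAD3 (22.2 CPM, others 16.04 to 16.8), and fetus 7 was the highest in IGF2 (2555 CPM, others 2138 to 2200).

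CNTNAP5 differed between the groups in opposite directions in the 2 organs, with a gonad difference minus heart difference of 1.90 on the log2 scale (adjusted p = 0.0134, edgeR's quasi-likelihood test of the interaction). With the fetus as a block the adjusted p was 0.116 in edgeR.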

How the results depend on the processing

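The genes at an adjusted p under 0.05 were 1 higher and 1 lower, and leaving out 1 fetus gave 0 to 2 higher and 0 to 1 lower. At an unadjusted p there were 1390 higher and 936 lower genes, and 869 to 1935 and 599 to 1409 with 1 fetus left out (most without fetus 9, fewest without fetus 3 for the higher and fetus 10 for the lower genes). Adjusted counts of higher and lower genes were 148 and 99 with DESeq2, 1994 and 2047 with limma voom and sample weights (3526 and 3407 unadjusted), 0 and 0 with fetal weight as a covariate, and 0 lower with mitochondrial genes left out of the scaling. With all organs in 1 fit they were 1 and 0 (764 and 441 unadjusted). In the voom fit the joint library of fetuses 6 and 8, which lies inside the range of the others, had a weight of 16.1 against 0.227 to 1.95. The 9 libraries as deposited, the fit first planned, gave 24 and 39 in edgeR (1783 lower unadjusted). The same libraries gave 436 and 360 in DESeq2 (1562 lower unadjusted), and 115 and 200 in edgeR without fetus 1 (2281 lower unadjusted). Without fetuses 6 and 8, a fit chosen after seeing the data, the adjusted counts were 0 and 0 (455 lower unadjusted). With fetus 1 left out as well they were also 0 and 0. The cause of these shifts was not tested.

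For the gonad difference minus the heart difference, 1 gene was higher and 0 were lower at an adjusted p under 0.05, and leaving out 1 fetus gave 0 to 23 and 0 to 340, both highest without fetus 3 (605 to 1273 and 915 to 2480 unadjusted). With the fetus as a replicate block, 0 were higher and 0 lower, and 477 were higher and 1384 lower unadjusted. The gonad comparison itself has no pairing, since each fetus is in 1 group.

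Of 2622 values for 114 named genes under the alternatives, 2289 kept their direction and their side of the threshold, the adjusted one for OR10AL42 and LOC101904633 and the unadjusted one for the others. Of the rest, 233 no longer passed it, 37 newly passed it and 63, in 18 genes, turned direction. With fetal weight as a covariate SLC12A1 was −0.27, DCN −0.15, FYTTD1 −0.12, CASP2 −0.20, STAR 0.13, IGF2 0.13, SIX2 0.20, SOX9 −1.22, PTPRO −0.093, TRMT13 −0.58 and FZD6 −0.66. Of these 11 genes, SLC12A1 and DCN had passed the unadjusted threshold before. Without fetuses 1, 6 and 8, FYTTD1 was −0.24, CASP2 −0.17, TRMT13 −0.42 and FZD6 −0.67, and without fetuses 6 and 8, TRMT13 was −0.036 and FZD6 −0.28. Without fetus 1 in the libraries as deposited, CASP2 was −0.081 and FZD6 −0.18. All 9 libraries as deposited gave −0.012 for KEH36_r02, −0.022 for CNOT11, −0.036 for SLC5A2 and −0.084 for TBC1D20, and DESeq2 on them −0.002, −0.0079 and −0.073 for the last 3. With all organs in 1 fit these 4 genes were at −0.0070, −0.012, −0.033 and −0.039, and with upper-quartile factors at −0.013, −0.017, −0.035 and −0.042. TBC1D20 was also −0.0015 with DESeq2 size factors, −0.0013 with DESeq2 and −0.0011 with mitochondrial genes left out of the scaling. Leaving out 1 fetus gave −0.018 to 0.22 for PAX8, −0.094 to 0.48 for CASP2, −0.046 to 0.58 for KEH36_r01, −0.061 to 0.82 for TRMT13, −0.13 to 0.020 for RET, −0.29 to 0.42 for FZD6, −0.24 to 0.46 for KEH36_r02, −0.19 to 0.49 for CNOT11, −0.19 to 0.19 for SLC5A2 and −0.31 to 0.55 for TBC1D20. In the gene lists, leaving out 1 fetus gave 3 to 4 higher podocyte, 3 to 4 tubule, 5 to 8 erythroid, 36 to 59 ribosomal and 12 to 24 respiratory chain genes, and 1 to 3 lower nephron progenitor genes. Fetal weight as a covariate left 1 higher podocyte, 1 tubule and 28 ribosomal genes. Depth limits genes under 1 CPM, which rest on few counts per library.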
